A study of Mus musculus with 9 samples.

Results

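Corneas of Aire knockout mice that had been given phosphate-buffered saline (PBS) were compared with corneas of untreated Aire knockout mice by bulk RNA sequencing of whole cornea. The comparison covers 12645 of the 34165 gene names in the count table. Members were selected on their raw counts: a gene was kept when it had at least 10 in each of the 6 libraries. Names starting with mt-, Rpl, Rps, Gm and a digit, RP23- or RP24-, or containing -ps, were left out, and each library was rescaled to its kept genes. The group difference itself played no part in the choice, but a gene near 0 counts on either side could not enter. The groups were Aire knockout given PBS (KO + PBS, n = 4) and untreated Aire knockout (KO, n = 2). Both carried the Aire knockout, and the series design calls untreated KO its dry eye disease group. The labels give neither strain, sex nor the knockout allele. Untreated wild type (WT, n = 3) stood outside the comparison and its values are given beside some results. The KO + PBS sample titles give 24 hr and the KO titles 5 wk, whereas the series design gives day 7 of treatment and 6 wk of age, and the labels do not settle which applied. The replicates are titled as biological, with no word on whether mice were pooled, so a p-value here speaks only for the spread among the deposited libraries.

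Aire is the transcriptional regulator that makes thymic epithelial cells display proteins of peripheral tissues, so that T cells reacting to them are removed. Without it, T cells attack the lacrimal gland and other organs, the tear film fails, and the ocular surface becomes inflamed and keratinises. The cornea has a stratified epithelium on a basement membrane, a collagenous stroma kept by keratocytes, and a single inner layer of endothelium that pumps water out of the stroma. PBS is a salt solution with no drug in it, which wets the surface and is commonly used as the vehicle in treatment studies.

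The libraries of the groups were not counted in the same way, and the treatment cannot be told apart from that difference. Library totals were 22944576 to 27116073 counts in KO + PBS, against 25356754 and 68534734 in KO. Kept genes held 86.8 to 94.2% of the counts in KO + PBS and 67.9 and 71.5% in KO. Names of mitochondrial transcripts (mt-) held 0.796, 6.12, 0.923 and 0.881% of the counts in KO + PBS and 0% in KO, where the limit set by 3 counts is 0.118 and 0.0438 CPM of all counts. Names containing -ps, which mark pseudogenes, held 0.103 to 0.145% of the counts in KO + PBS and 6.62 and 7.44% in KO. WT resembled KO in these shares, with 66.0 to 67.8% for kept genes, 0% for mt- names and 8.02 to 8.70% for -ps names. Where KO + PBS is placed above, within or below WT in the text below, the same difference in counting therefore enters. Spearman's correlation over the kept genes was 0.789 to 0.851 between a KO + PBS and a KO library, 0.978 between the KO libraries, and 0.881 to 0.978 within KO + PBS, where replicate 2 stood farthest from the others (0.881 to 0.912). Krt12, Kera and Slc4a11, which mark the epithelium, stroma and endothelium of cornea, were kept, so all 6 libraries had counts for each corneal layer. Aire itself had 7, 9, 7 and 2 counts in KO + PBS, 0 and 3 in KO, and 4, 16 and 3 in WT. These are too few to check the genotype, and the table does not say which exons they fall in.

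Of the 12645 kept genes, 4883 (38.6%) were called, of which 2500 (19.8%) rose in KO + PBS relative to KO and 2383 (18.8%) fell, by edgeR's quasi-likelihood test at a Benjamini-Hochberg adjusted p under 0.05, called the edgeR adjusted p from here on. Levels are given as CPM, counts per 1000000 counts of kept genes, scaled by edgeR's TMM factors, which were 1.03 to 1.27 in KO + PBS and 0.762 and 0.840 in KO. Without these factors the median log2 fold change moved by 0.55, and the calls split into 4043 higher and 1029 lower. A direction is therefore relative to the middle of the kept genes. Ranks within a library need no such factor. By percentile among the kept genes, 3446 genes (27.3%) stood higher in every KO + PBS library than in either KO library and 3895 (30.8%) lower, and 4736 of the 4883 calls were also separated in this way. A log2 fold change of 3 or more was seen in 238 of the calls that rose and of -3 or less in 88 of those that fell. Without KO + PBS replicate 2 the calls were 3371 higher (26.7%) and 3451 lower (27.3%), among them 2499 of the 2500 and 2378 of the 2383. Leaving out KO + PBS replicate 3 gave 1775 higher and 1583 lower. The fit without KO replicate 1 called 1376 higher and 1389 lower, and the one without KO replicate 2 called 813 and 953. In each of these a lone KO library was assumed to vary like the others. In all 6 fits that left out a library, 758 genes that rose and 858 that fell were called.

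The size and sign of the difference went with the length, base composition and shared sequence of the genes. Over 5 equal bins of the matched genes by transcript length, whose median lengths ran from 1507 to 6862.5 bases, the median log2 fold change was -0.81, -0.26, 0.09, 0.40 and 0.77. The share of genes that rose was 4.56% in the shortest bin and 38.2% in the longest, and the share that fell was 45.8% in the shortest and 3.77% in the longest. Over 5 bins of GC content, low to high, the median was 0.78, 0.37, 0.02, -0.25 and -0.40. Among 354 genes that share at least 50% of their 31-base words with another gene, 17.5% rose and 41.2% fell. A second scaling, added after seeing these values, was restricted to 6988 genes with their own sequence, meaning under 5% shared 31-base words and no exon overlapping another gene, and took TMM factors within 25 cells of length and GC. It called 779 of them higher (11.1%) and 687 lower (9.83%). For genes with their own sequence this fit is called the own sequence class below. Counts of list members below are read against the shares of all kept genes, 19.8% higher and 18.8% lower, and of the own sequence class, 11.1% and 9.83%. Counts without KO + PBS replicate 2 are read against 26.7% higher and 27.3% lower. Those without TMM factors are read against 4043 higher and 1029 lower of 12645.

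**Figure D1:**
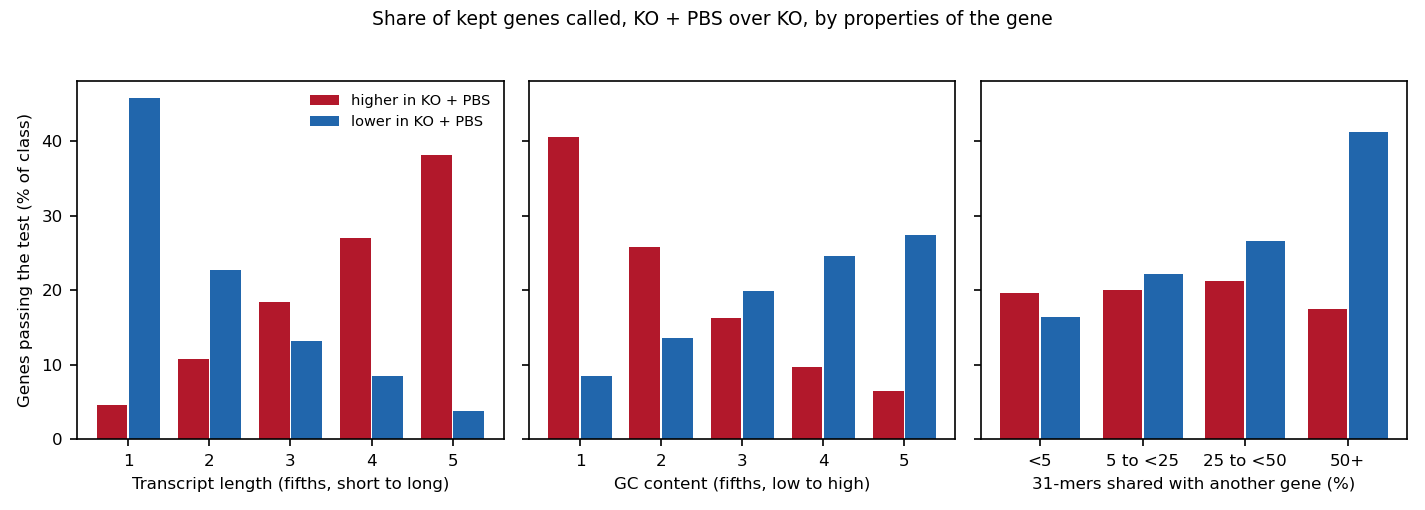
Share of kept genes that rose (red) or fell (blue) in KO + PBS relative to KO, in percent of each class, by 5 equal bins of transcript length, 5 of GC content and 4 classes of shared 31-base words. The share that rose is 4.56% in the shortest bin and 38.2% in the longest, and the share that fell is 41.2% where at least 50% of the words are shared.

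Gene copies show the difference in counting most plainly. Gstp1 and Gstp2 encode pi-class glutathione S-transferases and lie next to each other on chromosome 19. Their coding sequences of 630 bases differ at 12 positions (98.1% identity), and the last 300 bases are identical. Their exon 5 (GRCm38, GENCODE M21, minus strand, chr19:4036688-4036791 for Gstp1 and chr19:4040982-4041085 for Gstp2) is shown because it holds 6 of those 12 differences, given in capitals.
Gstp1: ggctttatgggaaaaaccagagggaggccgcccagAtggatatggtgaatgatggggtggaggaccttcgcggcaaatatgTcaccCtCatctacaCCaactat
Gstp2: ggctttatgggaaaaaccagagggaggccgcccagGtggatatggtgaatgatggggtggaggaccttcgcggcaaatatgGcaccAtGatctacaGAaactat
Counted from 1 at the 5′ end of the exon, Gstp1 to Gstp2, the differences are A36G, T82G, C87A, C89G, C97G and C98A. Gstp2 had 21, 57, 34 and 15 counts in KO + PBS, against 3487 and 12944 in KO. Gstp1 had 1356, 3231, 1915 and 1663 counts in KO + PBS, against 3921 and 13828 in KO. The ratio of Gstp2 to Gstp1 was thus 0.00902 to 0.0178 in KO + PBS, 0.889 and 0.936 in KO, and 0.871 to 0.882 in WT. Near-equal counts of both copies appeared in the untreated libraries of both genotypes and in none given PBS. The same held for Amd2 over Amd1, which encode a decarboxylase of polyamine synthesis, at 0.0083 to 0.0251 in KO + PBS and 0.893 and 0.904 in KO.

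The 10 genes that fell most by the rule for named genes share sequence with other genes, so their counts are uncertain. Gstp2 had the largest change, a log2 fold change of -7.86 ± 0.50 (SE). The others were H2-Q10, H2-Q1, Zbed5, Dynlt1c, Cyp4a12a, Amd2, Ndufs5, Krt16 and Dynlt1f, at -7.12 to -5.19. Between 17.2 and 97.4% of their 31-base words occur in another gene.

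The rule for named genes leaves out Col4a3 and Atp1b1, which have an overlapping exon. By that rule the 10 genes that rose most were Col4a4, Cryge, Crygd, Pde6a, Ednrb, Col4a5, Rbp3, Prph2, Npnt and Slc14a1. These 10 fall into matrix genes, lens crystallins, photoreceptor genes and membrane proteins. Npnt, which encodes nephronectin, a basement membrane ligand of integrins, had 298, 586, 183 and 145 CPM in KO + PBS, against 9.66 and 8.43 CPM in KO, and 131 to 165 CPM in WT. All 4 KO + PBS libraries stood far above both KO libraries and within or above the WT range (log2 fold change 5.07 ± 0.74, edgeR adjusted p = 0.00342). Within its own sequence class the change was 4.79 (edgeR adjusted p = 0.00825). Ednrb, the endothelin B receptor, had 179, 456, 116 and 91.4 CPM in KO + PBS, against 4.99 and 6.85 CPM in KO (log2 fold change 5.14 ± 0.87, edgeR adjusted p = 0.00543). Slc14a1, a urea transporter, had 83.1, 238, 49.6 and 60.0 CPM in KO + PBS, against 4.20 and 2.48 CPM in KO, and 82.3 to 93.1 CPM in WT (log2 fold change 5.03 ± 0.89, edgeR adjusted p = 0.00626). KO + PBS replicate 2 was the highest library for all 3. Ednrb rose by 4.26 and Slc14a1 by 4.72 in the own sequence class (edgeR adjusted p = 0.0238 and 0.0191). Leaving out KO replicate 2 gave Ednrb and Slc14a1 an edgeR adjusted p of 0.0589 and 0.0734, and leaving out KO replicate 1 also ended the Ednrb call.

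Genes with their own sequence that moved most in the length and GC fit, picked after their values were seen, add other names. Lpar5, a receptor for lysophosphatidic acid, had 48.5, 20.2, 45.0 and 45.4 CPM in KO + PBS, against 3.22 and 1.16 CPM in KO, and 1.498 to 2.55 CPM in WT. Lect1, which encodes chondromodulin, an inhibitor of vessel growth, had 19.96, 37.4, 15.6 and 15.3 CPM in KO + PBS, against 1.05 and 1.49 CPM in KO, and 39.0 to 46.1 CPM in WT. For both genes the KO + PBS and KO libraries did not overlap, and the WT libraries lay with KO for Lpar5 and above KO + PBS for Lect1. Dynap had 1.26, 4.96, 1.18 and 2.502 CPM in KO + PBS, against 68.9 and 40.1 CPM in KO, and 0.454 to 0.810 CPM in WT. Thyn1 had 2.69, 1.51, 3.62 and 2.33 CPM in KO + PBS, against 40.3 and 33.9 CPM in KO, and 40.8 to 52.5 CPM in WT. The log2 fold changes were 4.23 ± 0.61 for Lpar5, 4.09 ± 0.54 for Lect1, -4.46 ± 0.61 for Dynap and -3.87 ± 0.34 for Thyn1. Their edgeR adjusted p-values lay between 0.00118 and 0.00339 and stayed under 0.05 without each library in turn. In the own sequence class the changes were 5.25, 4.91, -3.74 and -3.18 in the same order (edgeR adjusted p = 0.00394 to 0.0109).

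**Figure D2:**
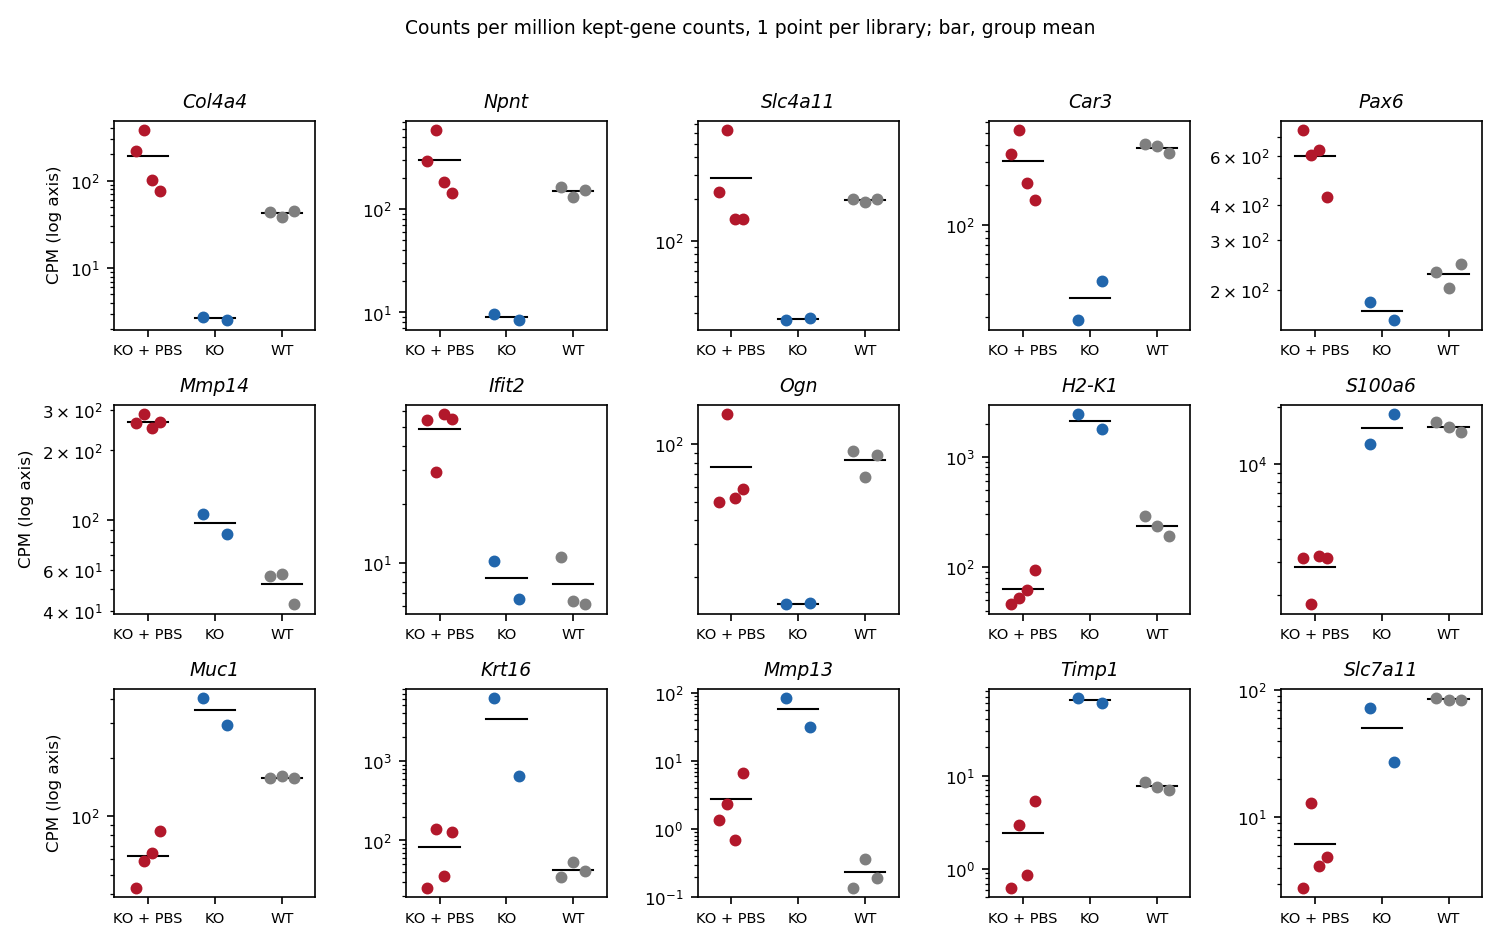
Level of 15 genes in CPM (log axis), 1 point per library, for KO + PBS (red, n = 4), KO (blue, n = 2) and WT (grey, n = 3), with a bar at the group mean. KO + PBS lies above KO for Col4a4 to Ogn and below it for H2-K1 to Slc7a11, while WT falls with KO + PBS for some genes, such as Npnt (131 to 165 CPM), and with KO for others, such as S100a6 (14774 to 16693 CPM).

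Genes of corneal epithelial identity did not move together. Of 23 kept members of 24 listed, 2 rose and 6 fell (5 and 3 without TMM factors), against 19.8% and 18.8% of all kept genes. Their median log2 fold change was -0.51, against 0.06 over all kept genes, and of the 15 with their own sequence 2 rose and 1 fell, against 11.1% and 9.83%. Pax6, the master transcription factor of the eye and of corneal epithelium, had 738, 603, 629 and 427 CPM in KO + PBS, against 181 and 156 CPM in KO, and 202 to 248 CPM in WT. It rose in KO + PBS (log2 fold change 1.83 ± 0.29, edgeR adjusted p = 0.00415, and 0.0549 without KO replicate 2), and also within its own sequence class (1.56, edgeR adjusted p = 0.0152). Gja1, the gap junction protein connexin 43, had 622, 699, 536 and 451 CPM in KO + PBS, against 183 and 155 CPM in KO (log2 fold change 1.77 ± 0.26, edgeR adjusted p = 0.0035, and 1.10 in the own sequence class, edgeR adjusted p = 0.0455). Krt12, the cornea-specific keratin, had 7126, 5236, 6702 and 6283 CPM in KO + PBS, against 30733 and 52413 CPM in KO, and 39778 to 46756 CPM in WT. Krt12 fell (log2 fold change -2.71 ± 0.32, edgeR adjusted p = 0.00178), but it shares 46.5% of its 31-base words and overlaps another gene. Elf3, an epithelial transcription factor, fell by 1.69 ± 0.28 on the log2 scale and Clu, the secreted chaperone clusterin, by 1.77 ± 0.36. The change of Clu within its own sequence class was -0.77 (edgeR adjusted p = 0.153), and without either KO library it was no longer called (edgeR adjusted p up to 0.0668).

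Stress keratins and genes of the cornified envelope, which mark keratinisation of the ocular surface, were lower or did not pass the test. Of 21 kept members of 30, none rose and 7 fell, against 18.8% of all kept genes lower (1 rose and 5 fell without TMM factors), with a median log2 fold change of -1.01. Among 13 with their own sequence 1 fell, against 9.83% of that class, Cnfn, which encodes cornifelin. Cnfn had 75.2, 76.3, 66.2 and 91.0 CPM in KO + PBS, against 278 and 405 CPM in KO, and 64.0 to 185 CPM in WT (log2 fold change -2.14 ± 0.22, edgeR adjusted p = 0.00139, and -1.11 in the own sequence class, edgeR adjusted p = 0.0171). Krt16, a keratin of stressed and hyperproliferative epithelium, had 25.3, 139, 35.9 and 130 CPM in KO + PBS, against 6192 and 651 CPM in KO, and 34.7 to 53.2 CPM in WT. The ratio between the KO libraries was larger than that between the lower KO and the highest KO + PBS library. Without KO replicate 1 the edgeR adjusted p of Krt16 was 0.0716, against 0.00894 with it. Krt16 shares 54.0% of its words with other genes. Krt13, a keratin of wet mucosal surfaces, fell by 1.34 ± 0.27 (log2) over all kept genes, and by 0.33 in its own sequence class (edgeR adjusted p = 0.399), and it was not called without KO replicate 2 (edgeR adjusted p = 0.0787). Krt14, a keratin of basal cells, fell by 2.21 ± 0.40 (log2), with 32.5% of its words shared and an edgeR adjusted p of 0.0527 without KO replicate 1.

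Epithelial defence genes were lower. Of 13 kept members of 21, 9 fell and none rose, against 18.8% of all kept genes lower, with a median log2 fold change of -1.90, and of 8 with their own sequence 2 fell, against 9.83% of that class, Defb1 and S100a6. Defb1, an antimicrobial beta-defensin, had 52.7, 32.6, 84.3 and 73.0 CPM in KO + PBS, against 252 and 280 CPM in KO, and 188 to 259 CPM in WT. S100a6, a calcium-binding protein, had 3172, 1800, 3254 and 3152 CPM in KO + PBS, against 12721 and 18424 CPM in KO, and 14774 to 16693 CPM in WT. For both genes every KO + PBS library lay below every KO and WT library. Their log2 fold changes were -2.13 ± 0.36 and -2.45 ± 0.33, and within their own sequence class -2.15 (edgeR adjusted p = 0.00627) and -1.63 (edgeR adjusted p = 0.03). Lcn2, which encodes the iron-scavenging lipocalin 2, had 3.50, 13.3, 3.87 and 9.92 CPM in KO + PBS, against 79.6 and 34.6 CPM in KO, and 9.41 to 21.97 CPM in WT (log2 fold change -2.90 ± 0.61, edgeR adjusted p = 0.0116). The Lcn2 call ended without KO replicate 1 (edgeR adjusted p = 0.0943) and in its own sequence class (-1.95, edgeR adjusted p = 0.054). The median transcript of this list is 1280 bases, shorter than the median of the shortest bin of all genes.

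Some defence genes that were counted in both KO libraries were outside the rule because a KO + PBS library had under 10 counts. Saa3, an acute phase serum amyloid, had 0, 16, 6 and 110 counts in KO + PBS, against 16001 and 12592 in KO, and 3, 9 and 26 in WT. S100a9, a subunit of the neutrophil and epithelial protein calprotectin, had 3, 12, 5 and 77 counts in KO + PBS, against 1902 and 672 in KO, and 229 to 335 in WT. S100a8, the other subunit, had 2 to 18 counts in KO + PBS, against 365 and 291 in KO. Stfa1, a stefin of neutrophils from a family of similar genes, had 1 to 6 counts in KO + PBS, against 23025 and 34989 in KO, and 10431 to 28712 in WT. These genes have no test here. KO + PBS replicate 4 held most of the Saa3 and S100a9 counts of its group.

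Interferon-stimulated genes as a group were not separated between KO + PBS and KO. Of 45 type I interferon response genes, all kept, 1 rose and 2 fell (5 and 1 without TMM factors), against 19.8% and 18.8% of all kept genes. Their summed level was 13050, 3843, 13369 and 10088 CPM in KO + PBS, against 12192 and 10820 CPM in KO. KO + PBS replicate 2 was the low library, and the others lay around KO. Without that replicate 17 rose and 9 fell, against 26.7% and 27.3% of all kept genes. Ifit2, which binds RNA and restrains translation, had 53.9, 29.3, 58.1 and 54.8 CPM in KO + PBS, against 10.2 and 6.54 CPM in KO, and 6.13 to 10.7 CPM in WT. It rose (log2 fold change 2.56 ± 0.37, edgeR adjusted p = 0.00343), and it was called without each library in turn and in its own sequence class (1.86, edgeR adjusted p = 0.00861). Its neighbour Ifit1 had 604, 89.6, 576 and 359 CPM in KO + PBS, against 288 and 241 CPM in KO, and 12.04 to 34.9 CPM in WT. The Ifit1 libraries of KO + PBS lay on both sides of KO (log2 fold change 0.62 ± 0.69, edgeR adjusted p = 0.514), and without replicate 2 the edgeR adjusted p was 0.0225. Isg15, a ubiquitin-like modifier, had 559, 110, 734 and 528 CPM in KO + PBS, against 1109 and 796 CPM in KO, and 73.2 to 153 CPM in WT (log2 fold change -0.98 ± 0.64, edgeR adjusted p = 0.267, and 0.0462 without replicate 2). Ifi35 fell by 2.28 ± 0.22 (log2), with 13.0% of its words shared and an exon overlapping another gene.

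Of 28 kept members of 30 in the interferon gamma response, 2 rose and 2 fell, against 19.8% and 18.8% of all kept genes. Without KO + PBS replicate 2, 7 rose and 3 fell, and without TMM factors 4 and 0. Gbp7, a guanylate-binding protein that acts against intracellular pathogens, had 169, 29.6, 136 and 166 CPM in KO + PBS, against 23.8 and 14.3 CPM in KO, and 4.01 to 4.90 CPM in WT. The libraries did not overlap, though replicate 2 came close to KO (log2 fold change 2.72 ± 0.74, edgeR adjusted p = 0.0281), and the call ended without KO + PBS replicate 1, 3 or 4 or either KO library (edgeR adjusted p up to 0.193). Irf1, a transcription factor induced by interferon gamma, had 240, 136, 301 and 341 CPM in KO + PBS, against 713 and 601 CPM in KO, and 271 to 280 CPM in WT. It fell by 1.37 ± 0.36 (log2, edgeR adjusted p = 0.0246), a call lost without KO + PBS replicate 1 or either KO library (edgeR adjusted p up to 0.129). Of 7 members with their own sequence 1 fell in that class, Ifngr2, the second chain of the interferon gamma receptor (-0.87 on the log2 scale, edgeR adjusted p = 0.0385).

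Genes of MHC class I presentation were lower. Of 22 listed and kept, 1 rose and 10 fell (2 and 6 without TMM factors), against 19.8% and 18.8% of all kept genes, with a median log2 fold change of -1.14. H2-K1, a class I heavy chain, had 46.3, 52.5, 62.5 and 94.1 CPM in KO + PBS, against 2432 and 1771 CPM in KO, and 191 to 289 CPM in WT. H2-K1 fell in KO + PBS below the WT libraries as well (log2 fold change -5.04 ± 0.35, edgeR adjusted p = 0.000774), but it shares 22.9% of its words with other class I genes. H2-D1, another class I heavy chain, had 1220, 1003, 1454 and 2266 CPM in KO + PBS, against 3467 and 2668 CPM in KO. Its WT values were 671 to 744 CPM, below every KO + PBS library. H2-D1 was not called (log2 fold change -1.05 ± 0.36, edgeR adjusted p = 0.0595, and 0.0402 without KO + PBS replicate 2) and shares 27.8% of its words. H2-T22 and H2-T23, nonclassical class I chains with 71.3 and 29.0% of their words shared, fell by 3.51 ± 0.46 and 2.77 ± 0.42 (log2). B2m, the light chain that all of them need and which has its own sequence, had 1072, 687, 1398 and 2174 CPM in KO + PBS, against 3553 and 2644 CPM in KO, and 260 to 416 CPM in WT (log2 fold change -1.22 ± 0.45, edgeR adjusted p = 0.0712, and 0.0256 without KO + PBS replicate 2). In the own sequence class the change of B2m was -1.21 (edgeR adjusted p = 0.0686). Psmb8, an immunoproteasome subunit, had 102, 64.8, 110 and 179 CPM in KO + PBS, against 800 and 791 CPM in KO, and 170 to 208 CPM in WT (log2 fold change -2.80 ± 0.37, edgeR adjusted p = 0.00273). Psmb10, another of these subunits, fell by 1.49 ± 0.39 (log2) over all kept genes, but its change was -0.45 in its own sequence class (edgeR adjusted p = 0.554), and 4 of the 6 fits without a library did not call it. Canx, the chaperone calnexin, was the member that rose (1.66 ± 0.23 on the log2 scale, and 0.77 in the own sequence class, edgeR adjusted p = 0.0504). Of the 5 members with their own sequence, 0 passed edgeR's test in either direction in that class, where their median log2 fold change was -0.45.

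Leukocyte genes were few and uneven across the KO + PBS libraries. Of 27 genes of T cells and cytotoxic cells, 13 were kept and 0 were called by edgeR, while 12 were left out because KO + PBS alone had under 10 counts in a library. Their summed level was 13.7, 39.1, 30.1 and 188 CPM in KO + PBS, against 140 and 79.0 CPM in KO. Cd3e, a chain of the T cell receptor complex, had 0.897, 1.82, 1.11 and 11.3 CPM in KO + PBS, against 3.28 and 2.23 CPM in KO, and 0.0454 to 0.207 CPM in WT. Replicate 4 was above KO and the other 3 were below it, and without replicate 4 the log2 fold change of Cd3e was -1.09, against 0.46 ± 1.11 with it. In whole cornea, fewer cells of a type and less RNA per cell cannot be told apart. H2-Aa, an MHC class II chain of antigen-presenting cells, had 3.50, 11.8, 7.59 and 48.7 CPM in KO + PBS, against 280 and 181 CPM in KO, and 68.7 to 79.7 CPM in WT. H2-Aa fell (log2 fold change -3.69 ± 0.94, edgeR adjusted p = 0.0222), also in its own sequence class (-4.06, edgeR adjusted p = 0.0296), and it was not called without KO + PBS replicate 3 or either KO library (edgeR adjusted p up to 0.103). Cd74, the invariant chain of the same pathway, had 74.5, 234, 154 and 992 CPM in KO + PBS, against 619 and 462 CPM in KO (edgeR adjusted p = 0.662). Of 10 kept class II genes, H2-Aa was the single call.

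Monocyte, macrophage and neutrophil genes had 25 kept members of 30, of which 2 fell and none rose, against 18.8% and 19.8% of all kept genes. Without TMM factors 2 rose and 1 fell. Cd68, a lysosomal glycoprotein of macrophages, had 15.03, 16.4, 17.3 and 26.6 CPM in KO + PBS, against 85.7 and 71.3 CPM in KO, and 49.5 to 57.6 CPM in WT. It fell without overlap (log2 fold change -2.06 ± 0.25, edgeR adjusted p = 0.00222), also in its own sequence class (-1.04, edgeR adjusted p = 0.0257). Cytokine and chemokine genes had 24 kept members of 30, of which 6 fell and none rose, against 18.8% and 19.8% of all kept genes, and 1 of 15 with their own sequence fell, against 9.83%. Without TMM factors 1 rose and 2 fell. Il1b, the inflammatory interleukin 1 beta, had 1.08, 3.33, 1.83 and 6.08 CPM in KO + PBS, against 30.9 and 8.63 CPM in KO, and 1.23 to 1.70 CPM in WT (log2 fold change -2.68 ± 0.75, edgeR adjusted p = 0.0306). The call ended without KO + PBS replicate 3 or either KO library (edgeR adjusted p up to 0.286). Il18, an epithelial member of the interleukin 1 family, had 36.3, 26.3, 36.7 and 43.0 CPM in KO + PBS, against 86.9 and 108 CPM in KO, and 69.2 to 75.9 CPM in WT. It fell by 1.45 ± 0.22 (log2, edgeR adjusted p = 0.00368), and by 0.76 in its own sequence class (edgeR adjusted p = 0.0355).

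Keratocyte and stromal genes rose about as often as all kept genes and none fell. Of 30 kept members of 32, 6 rose, against 19.8% of all kept genes, with a median log2 fold change of 0.15, and of 21 with their own sequence 2 rose, against 11.1% of that class, Ogn and Chst5. Lum, the proteoglycan lumican that spaces collagen fibrils, had 56.8, 321, 96.8 and 254 CPM in KO + PBS, against 29.6 and 19.7 CPM in KO, and 282 to 372 CPM in WT. Dcn, its relative decorin, had 199, 1193, 399 and 881 CPM in KO + PBS, against 124 and 102 CPM in KO, and 1611 to 1909 CPM in WT. For both genes replicates 2 and 4 were the high ones, and no KO + PBS library overlapped KO. Lum rose by 2.89 ± 0.80 and Dcn by 2.56 ± 0.76 (log2, edgeR adjusted p = 0.029 and 0.0377). In the own sequence class the changes were 2.69 and 1.71, and neither was called (edgeR adjusted p = 0.0634 and 0.183). Both calls were lost without KO + PBS replicate 4 or either KO library (edgeR adjusted p up to 0.193 for Lum and 0.215 for Dcn), and for Dcn also without KO + PBS replicate 3. Kera, the keratan sulfate proteoglycan keratocan, had 48.0, 258, 74.9 and 209 CPM in KO + PBS, against 33.3 and 31.6 CPM in KO, and 617 to 716 CPM in WT (edgeR adjusted p = 0.0569).

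Ogn, the small proteoglycan osteoglycin, had 49.6, 144, 52.1 and 58.2 CPM in KO + PBS, against 14.5 and 14.6 CPM in KO, and 67.2 to 91.7 CPM in WT. Chst5, a sulfotransferase of keratan sulfate, had 71.2, 128, 33.3 and 42.0 CPM in KO + PBS, against 8.67 and 6.99 CPM in KO, and 103 to 116 CPM in WT. All KO + PBS libraries were above KO, with replicate 2 highest. The log2 fold changes were 2.39 ± 0.53 and 3.13 ± 0.63, and in their own sequence class 2.18 (edgeR adjusted p = 0.0481) and 3.63 (edgeR adjusted p = 0.00861). Col12a1, a collagen on the surface of fibrils, rose by 2.43 ± 0.58 (log2) over all kept genes and by 1.83 in its own sequence class (edgeR adjusted p = 0.0673). Leaving out either KO library ended these 3 calls (edgeR adjusted p up to 0.147). The summed level of the whole list was 2986, 15781, 4089 and 8290 CPM in KO + PBS, against 7274 and 9932 CPM in KO, so the groups overlapped for the sum. Without KO + PBS replicate 2, 6 members rose and 6 fell.

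Basement membrane genes included some of the largest rises. Of 26 kept members of 27, 8 rose and none fell, against 19.8% and 18.8% of all kept genes, with a median log2 fold change of 0.62, and of 15 with their own sequence 4 rose and none fell, against 11.1% and 9.83%. Without KO + PBS replicate 2, 10 rose and 3 fell. The median transcript of this list is 6631.5 bases, near the 6862.5 bases of the longest bin of all genes. In that bin 38.2% rose and 3.77% fell, with a median log2 fold change of 0.77. In the own sequence class the median of the list was 0.09. The alpha 3, alpha 4 and alpha 5 chains of type IV collagen form the network of Descemet's membrane, which the endothelium lays down. Col4a3 had 273, 450, 126 and 84.9 CPM in KO + PBS, against 1.38 and 1.10 CPM in KO, and 28.6 to 39.3 CPM in WT. Col4a4 had 218, 378, 100.8 and 76.7 CPM in KO + PBS, against 2.76 and 2.54 CPM in KO, and 38.4 to 45.1 CPM in WT. Col4a5 had 117, 204, 79.1 and 58.2 CPM in KO + PBS, against 2.83 and 3.66 CPM in KO, and 11.5 to 16.3 CPM in WT. In all 3 genes the order of the KO + PBS libraries was the same, with replicate 2 highest and replicate 4 lowest, and every one was above WT and KO. The log2 fold changes were 7.57 ± 0.99, 6.19 ± 0.89 and 5.13 ± 0.66 (edgeR adjusted p = 0.00255, 0.00337 and 0.00241), and the calls held without each library in turn. In their own sequence class Col4a4 rose by 5.59 and Col4a5 by 4.54 (log2), while Col4a3 has an overlapping exon. Col4a6, which pairs with Col4a5 in epithelial basement membrane, rose by 3.07 ± 0.82 (log2), and by 2.67 in the own sequence class (edgeR adjusted p = 0.0471), a call lost without either KO library (edgeR adjusted p up to 0.156). Nid1, the linker protein nidogen 1, had 108, 99.9, 74.3 and 92.7 CPM in KO + PBS, against 33.9 and 36.6 CPM in KO, and 77.5 to 92.2 CPM in WT (log2 fold change 1.41 ± 0.20, edgeR adjusted p = 0.00314).

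Col4a4 and Col4a3 are transcribed away from each other on chromosome 1, and 71 bases lie between their annotated starts (GRCm38.p6, RefSeq sequence, chr1:82586850-82586920, given on the minus strand, which is the strand of Col4a4). The stretch is shown because both genes rose together and share it.
Col4a4-Col4a3: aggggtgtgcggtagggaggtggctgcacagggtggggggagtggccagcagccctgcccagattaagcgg
Neither strand of these letters holds the AP-1 motif TGAGTCA, the GC box motif GGGCGG, the TATA box motif TATAAA or the motif CCAAT, which occur in 1.32, 20.7, 4.41 and 13.3% of windows of the same length before the starts of 32851 RefSeq genes.

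Matrix proteases and their inhibitors moved in both directions. Of 26 kept members of 30, 8 rose and 5 fell, against 19.8% and 18.8% of all kept genes, and of 17 with their own sequence 4 rose and 2 fell, against 11.1% and 9.83%. Without KO + PBS replicate 2, 9 rose and 11 fell, and without TMM factors 10 and 2. Mmp14, the membrane-bound collagenase of stromal cells, had 263, 288, 252 and 265 CPM in KO + PBS, against 106 and 86.4 CPM in KO, and 42.8 to 58.0 CPM in WT. The KO + PBS libraries were close to each other and far above KO (log2 fold change 1.47 ± 0.19, edgeR adjusted p = 0.00238), also in the own sequence class (1.58, edgeR adjusted p = 0.00554). Adam10, a sheddase of Notch and cadherins, had 143, 127, 125 and 129 CPM in KO + PBS, against 36.1 and 22.6 CPM in KO, and 17.8 to 23.2 CPM in WT (log2 fold change 2.16 ± 0.24, edgeR adjusted p = 0.00161, and 1.27 in the own sequence class, edgeR adjusted p = 0.00728). Timp3, an inhibitor bound to matrix, rose by 4.74 ± 0.92 (log2) but shares 37.5% of its words, and the call ended without either KO library (edgeR adjusted p up to 0.0861).

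Mmp13, a secreted collagenase, and Timp1, a soluble inhibitor of metalloproteinases, both of which inflammation induces, were lower. Mmp13 had 1.35, 2.34, 0.681 and 6.60 CPM in KO + PBS, against 84.9 and 31.7 CPM in KO, and 0.136 to 0.363 CPM in WT. Timp1 had 0.628, 2.97, 0.860 and 5.31 CPM in KO + PBS, against 67.3 and 60.1 CPM in KO, and 6.94 to 8.53 CPM in WT. Both fell in each KO + PBS library, Mmp13 to values still above WT and Timp1 to values below it. The log2 fold changes were -4.41 ± 0.85 and -4.71 ± 0.78 (edgeR adjusted p = 0.0086 and 0.00524), and in their own sequence class -4.64 and -3.75 (edgeR adjusted p = 0.0134 and 0.0162). Without KO replicate 1 the edgeR adjusted p of Mmp13 was 0.065. The 250 bases before the starts of both genes are shown because they fell together (GRCm38.p6, RefSeq sequence, plus strand, chr9:7272264-7272513 for Mmp13 and chrX:20869916-20870165 for Timp1), with every match to the same motifs on either strand in capitals, none of which overlap.
Mmp13: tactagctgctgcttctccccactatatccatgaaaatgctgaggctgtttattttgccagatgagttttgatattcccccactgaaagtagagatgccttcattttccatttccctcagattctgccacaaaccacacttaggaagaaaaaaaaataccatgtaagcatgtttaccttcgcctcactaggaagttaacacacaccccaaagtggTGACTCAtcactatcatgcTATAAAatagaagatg
Timp1: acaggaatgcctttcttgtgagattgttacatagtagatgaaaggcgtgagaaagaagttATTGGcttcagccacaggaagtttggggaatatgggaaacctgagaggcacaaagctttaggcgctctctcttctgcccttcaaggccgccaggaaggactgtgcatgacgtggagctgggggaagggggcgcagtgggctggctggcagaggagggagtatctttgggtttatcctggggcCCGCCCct
Mmp13 holds TGAGTCA on the reverse strand with its match beginning 35 bases before the start, and TATAAA at 16 bases before it. Timp1 holds CCAAT and GGGCGG, both on the reverse strand, at 190 and 8 bases before the start. In such windows of 32851 RefSeq genes TGAGTCA occurs in 4.46%, GGGCGG in 32.7%, TATAAA in 12.4% and CCAAT in 33.8%. No motif of these is shared by both windows.

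Corneal endothelial genes were higher as a group. Of 22 listed, all kept, 10 rose and 1 fell, against 19.8% and 18.8% of all kept genes, and of 17 with their own sequence 8 rose and none fell, against 11.1% and 9.83%. The median log2 fold change of the list was 1.92. Slc4a11, the endothelial transporter mutated in corneal endothelial dystrophy, had 226, 627, 144 and 143 CPM in KO + PBS, against 26.6 and 27.8 CPM in KO, and 190 to 200 CPM in WT. Col8a2, a type VIII collagen of Descemet's membrane, had 689, 1434, 464 and 378 CPM in KO + PBS, against 111 and 92.5 CPM in KO, and 381 to 444 CPM in WT. Car3, a carbonic anhydrase, had 341, 520, 207 and 155 CPM in KO + PBS, against 18.9 and 37.2 CPM in KO, and 349 to 408 CPM in WT. For all 3 genes KO + PBS and KO did not overlap and WT lay within the KO + PBS range. Slc4a11 rose by 3.39 ± 0.77, Col8a2 by 2.86 ± 0.63 and Car3 by 3.44 ± 0.64 (log2, edgeR adjusted p = 0.015, 0.0138 and 0.00742), and in their own sequence class by 3.44, 2.86 and 4.17.

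Other endothelial genes followed. Col8a1, the partner chain of Col8a2, rose by 3.19 ± 0.59, Slc4a4, the sodium bicarbonate cotransporter, by 3.84 ± 0.89, and Cdh2, the N-cadherin of endothelial junctions, by 3.45 ± 0.58 on the log2 scale. In the own sequence class the changes were 2.67, 3.11 and 3.17, and Slc4a4 was not called there (edgeR adjusted p = 0.0306, 0.0547 and 0.0123). Atp1b1, the beta chain of the sodium pump, had 137, 429, 122 and 104.8 CPM in KO + PBS, against 3.02 and 2.42 CPM in KO, and 13.4 to 18.3 CPM in WT. It rose by 6.19 ± 0.86 (log2, edgeR adjusted p = 0.00303), with 19.9% of its words shared and an overlapping exon. Leaving out KO replicate 2 ended the calls of Slc4a11, Col8a1, Col8a2, Slc4a4 and Cdh2 (edgeR adjusted p = 0.0649 to 0.12) and leaving out KO replicate 1 that of Car3 (edgeR adjusted p = 0.0621) and of the first 4, while Atp1b1 was called in every such fit. The summed level of the list was 3097, 6545, 2487 and 2431 CPM in KO + PBS, against 1350 and 1205 CPM in KO. Replicate 2 was the highest, and every KO + PBS library was above both KO libraries.

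Genes of tissues behind and around the cornea also differed between these libraries, and their part in the endothelial values was not tested. Of 14 kept lens genes of 18, 8 rose and none fell, against 19.8% and 18.8% of all kept genes, with a median log2 fold change of 3.84. Their summed level was 3270, 10555, 686 and 2863 CPM in KO + PBS, against 369 and 507 CPM in KO. Crybb2, a lens beta crystallin, had 433, 1430, 78.6 and 390 CPM in KO + PBS, against 42.4 and 34.4 CPM in KO, and 35.8 to 123 CPM in WT, a log2 fold change of 3.92 ± 1.17 (edgeR adjusted p = 0.0376, and 4.77 in the own sequence class, edgeR adjusted p = 0.0305). Crygd, a gamma crystallin, rose by 5.22 ± 1.13 on the log2 scale, with 38.8% of its words shared and no call without either KO library (edgeR adjusted p up to 0.097). Of 14 kept genes of retina, iris and ciliary body of 18, 3 rose, against 19.8%, and their summed level was 212, 5187, 2024 and 1456 CPM in KO + PBS, against 422 and 1065 CPM in KO, so the groups overlapped. Prph2, a structural protein of photoreceptor discs, had 3.36, 31.6, 118 and 94.7 CPM in KO + PBS, against 0.854 and 2.59 CPM in KO, and 4.57 to 39.4 CPM in WT, a log2 fold change of 5.09 ± 1.53 (edgeR adjusted p = 0.0386, and 5.68 in the own sequence class, edgeR adjusted p = 0.0496). KO + PBS replicate 1 had the lowest retinal sum of its group and replicate 3 the lowest lens sum. Their endothelial sums were 3097 and 2487 CPM. Replicate 2 had the highest lens, retinal and endothelial sum of its group (10555, 5187 and 6545 CPM). The calls of Crybb2 and Prph2 ended without either KO library and without KO + PBS replicate 4 (edgeR adjusted p up to 0.214 and 0.193), for Crybb2 also without KO + PBS replicate 1 and for Prph2 also without KO + PBS replicate 3.

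**Figure D3:**
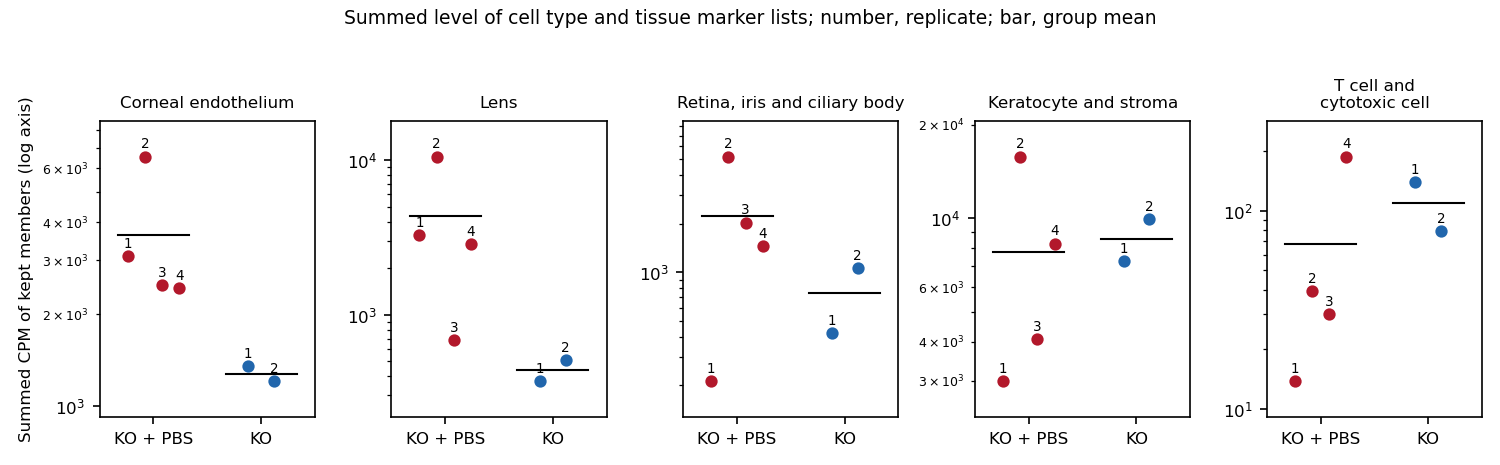
Summed CPM (log axis) of the kept members of 5 marker lists in KO + PBS (red, n = 4) and KO (blue, n = 2), each point labelled with its replicate number and a bar at the group mean. The endothelial sums (2431 to 6545 CPM in KO + PBS) and the lens sums (686 to 10555 CPM) clear both KO libraries. The retinal, stromal and T cell sums overlap, and replicate 2 leads all but the T cell panel, in which replicate 4 does (188 CPM).

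Cell junction genes split by gene. Of 18 desmosome and adherens junction genes 5 rose and 2 fell (8 and 1 without TMM factors), against 19.8% and 18.8% of all kept genes. Of the 11 with their own sequence edgeR called 0. Dsp, the desmosomal plaque protein desmoplakin, had 5997, 1797, 3312 and 3043 CPM in KO + PBS, against 789 and 503 CPM in KO, and 687 to 888 CPM in WT (log2 fold change 2.45 ± 0.56, edgeR adjusted p = 0.0149, and up to 0.129 without a KO library). Ctnnb1, beta-catenin, rose by 3.14 ± 0.38 and Ctnnd1, p120-catenin, fell by 2.38 ± 0.16 (log2), though 68.5% of the words of Ctnnd1 and 18.5% of those of Ctnnb1 are shared. Of 18 tight junction genes 3 rose and 3 fell (6 and 1 without TMM factors). Tjp1, the scaffold ZO-1, had 487, 185, 288 and 254.6 CPM in KO + PBS, against 66.6 and 42.3 CPM in KO, and 41.9 to 52.4 CPM in WT. It rose by 2.48 ± 0.47 (log2, edgeR adjusted p = 0.00773, and 0.0832 without KO replicate 2), also in its own sequence class (1.68, edgeR adjusted p = 0.0228). Of 15 hemidesmosome and integrin genes 1 rose and 5 fell, against 19.8% and 18.8% of all kept genes. Without TMM factors 2 rose and none fell. Lamb3, a chain of the anchoring laminin 332, had 100.9, 97.003, 92.8 and 94.9 CPM in KO + PBS, against 256.5 and 166 CPM in KO, and 77.0 to 87.5 CPM in WT. Lamb3 fell by 1.13 ± 0.20 (log2, edgeR adjusted p = 0.0064) and by 1.20 in its own sequence class, while Itgav, the alpha V integrin, rose by 1.73 ± 0.23.

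Mucin and glycocalyx genes, which hold the tear film on the epithelium, had 10 kept members of 12. Over all kept genes 2 fell and none rose (2 and 2 without TMM factors), and of 7 with their own sequence 3 fell, against 9.83%. Muc1, a transmembrane mucin, had 42.8, 59.0, 64.5 and 84.2 CPM in KO + PBS, against 405 and 296 CPM in KO, and 157 to 160 CPM in WT. Lgals3, the lectin galectin 3 that cross-links such mucins, had 667, 509, 701 and 749 CPM in KO + PBS, against 2972 and 3830 CPM in KO, and 1712 to 1921 CPM in WT. For both genes KO + PBS lay below WT and KO above it. Muc1 fell by 2.48 ± 0.28 and Lgals3 by 2.37 ± 0.25 (log2, edgeR adjusted p = 0.00176 and 0.00147), and by 1.95 and 1.32 in their own sequence class (edgeR adjusted p = 0.00861 and 0.0256). Among 21 genes of EGF receptor ligands, syndecans and glypicans 5 rose and 1 fell, against 19.8% and 18.8% of all kept genes. Sdc4, the heparan sulfate proteoglycan syndecan 4, had 399, 452, 431 and 422 CPM in KO + PBS, against 914 and 1162 CPM in KO, and 648 to 732 CPM in WT, and it fell by 1.28 ± 0.20 (log2, edgeR adjusted p = 0.00387), and by 0.97 in the own sequence class (edgeR adjusted p = 0.0219). Gpc6, a glypican, rose by 2.36 ± 0.42 (log2), and by 1.83 in the own sequence class (edgeR adjusted p = 0.039), a call lost without either KO library (edgeR adjusted p up to 0.0581).

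Lists of housekeeping genes with short transcripts were lower in the fit over all kept genes and mostly not in the own sequence class. Of 33 nuclear genes of the respiratory chain 22 fell and 1 rose, against 18.8% and 19.8% of all kept genes. Their median log2 fold change was -1.25 and their median transcript 1553 bases. Of the 11 with their own sequence 3 fell and 2 rose, with a median of -0.09. Without TMM factors 18 fell and 4 rose. Of 24 genes of the constitutive proteasome 15 fell and 1 rose (11 and 3 without TMM factors), and of 9 with their own sequence 1 fell. Of 26 antioxidant and metallothionein genes 14 fell and 2 rose (9 and 3 without TMM factors), and of 17 with their own sequence 2 fell, Sod2 and Slc7a11, and 1 rose, Gclc. Sod2, the mitochondrial superoxide dismutase, had 86.7, 72.0, 90.8 and 94.3 CPM in KO + PBS, against 208 and 215 CPM in KO, and 172 to 176 CPM in WT (log2 fold change -1.30 ± 0.17, edgeR adjusted p = 0.00237, and -2.47 in the own sequence class, edgeR adjusted p = 0.0032). Slc7a11, the cystine importer for glutathione synthesis, had 2.78, 13.0, 4.12 and 4.83 CPM in KO + PBS, against 72.9 and 27.4 CPM in KO, and 83.4 to 86.6 CPM in WT. It fell by 3.01 ± 0.66 (log2, edgeR adjusted p = 0.0129, and 0.11 without KO replicate 1), and by 4.05 in the own sequence class (edgeR adjusted p = 0.0147). Gclc, the enzyme of the next step in that pathway, had 82.4, 54.6, 52.3 and 66.3 CPM in KO + PBS, against 16.2 and 22.5 CPM in KO, and 21.6 to 23.01 CPM in WT (log2 fold change 1.72 ± 0.27, edgeR adjusted p = 0.00424, and 1.35 in the own sequence class, edgeR adjusted p = 0.0113).

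**Figure D4:**
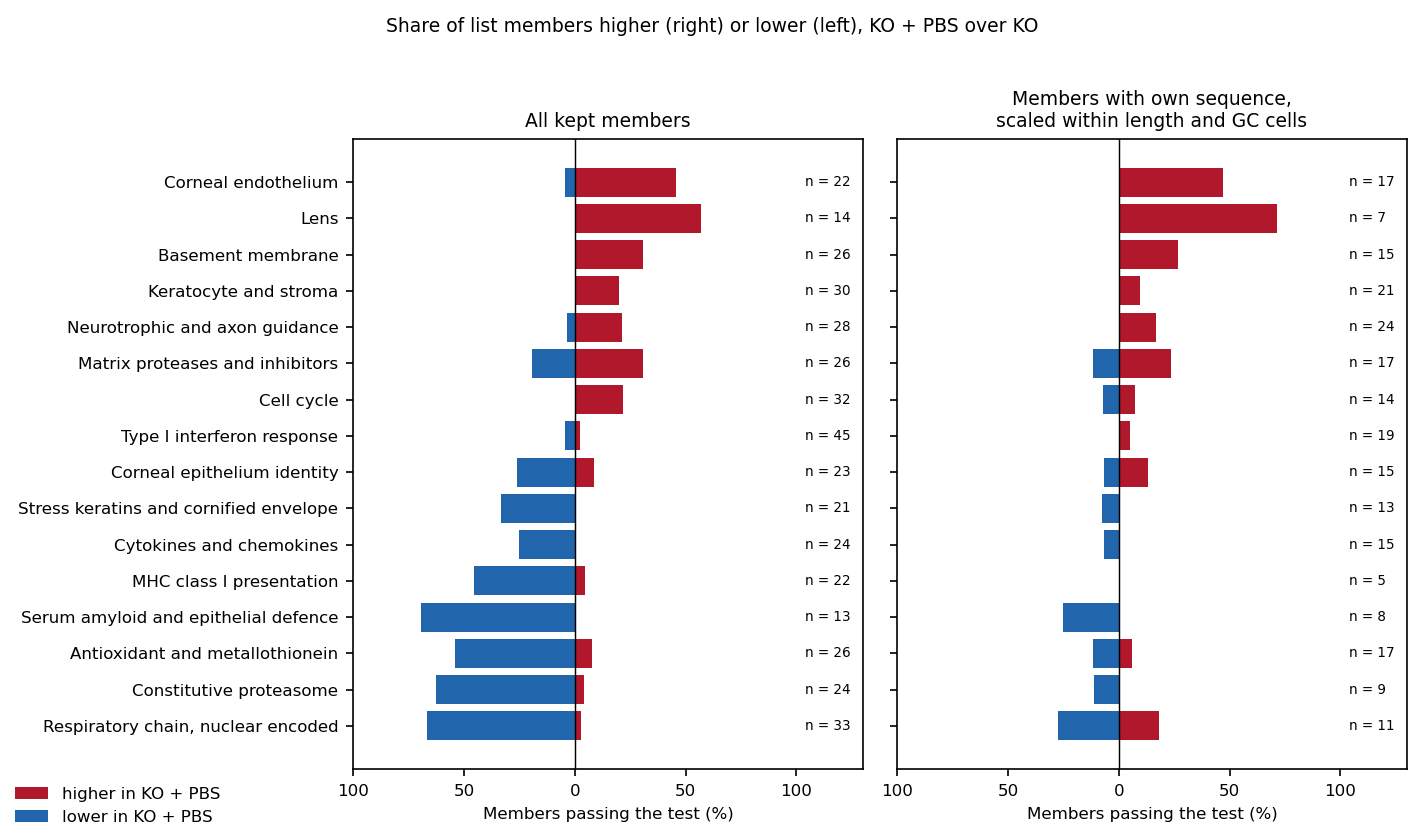
Percent of the members of 16 gene lists that rose (right, red) or fell (left, blue) in KO + PBS relative to KO, over all kept members and over members with their own sequence scaled within length and GC cells, with the number of members at the right of each panel. The endothelial list has 10 of 22 and 8 of 17 members higher in the panels, whereas the 22 of 33 respiratory chain genes that fell shrink to 3 of 11.

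Regulatory and growth genes gave scattered calls. Of 32 cell cycle genes 7 rose and none fell, against 19.8% and 18.8% of all kept genes. Without KO + PBS replicate 2, 15 rose, against 26.7% of all kept genes. Without TMM factors 15 also rose, against 4043 of 12645, but of 14 with their own sequence 1 rose and 1 fell. Cenpf, a kinetochore protein, had 35.6, 27.0, 29.6 and 27.4 CPM in KO + PBS, against 10.1 and 4.71 CPM in KO, and 8.85 to 13.3 CPM in WT (log2 fold change 2.03 ± 0.35, edgeR adjusted p = 0.00584). In its own sequence class the change of Cenpf was 0.88 (edgeR adjusted p = 0.0742). Ccnd1, cyclin D1 of the G1 phase, rose by 2.92 ± 0.51 (log2, edgeR adjusted p up to 0.0686 without a KO library). Of 22 genes of glycolysis and hypoxia 5 rose and 4 fell (8 and 2 without TMM factors). Hif1a, the hypoxia-inducible transcription factor, had 185, 318, 175 and 202 CPM in KO + PBS, against 14.6 and 17.4 CPM in KO, and 21.4 to 30.1 CPM in WT, and it rose by 3.78 ± 0.35 (log2) with an exon overlapping another gene. Of 20 genes of the unfolded protein response 4 rose and 4 fell (5 and 0 without TMM factors). Ern1, the stress sensor IRE1, had 24.4, 24.0, 20.7 and 24.1 CPM in KO + PBS, against 6.37 and 4.93 CPM in KO, and 4.75 to 6.40 CPM in WT (log2 fold change 2.05 ± 0.22, edgeR adjusted p = 0.00154), and it rose by 1.46 in its own sequence class (edgeR adjusted p = 0.00792). Of 22 cholesterol synthesis genes 2 rose and 1 fell, and 9 and 2 without KO + PBS replicate 2. Of 26 myofibroblast and scar genes 3 rose and none fell, against 19.8% and 18.8% of all kept genes, but 5 rose and 8 fell without KO + PBS replicate 2. Of 20 kept immediate early genes 2 fell, Ier2 and Ier3, while the list's median log2 fold change was 0.16. Its counts were 5 higher and 0 lower without TMM factors, and 6 and 3 without KO + PBS replicate 2, and in the own sequence class the values of Ier2 and Ier3 were 0.40 and -0.04 with neither called. Of 9 kept Wnt genes of 16, 2 rose. Of 3 kept mast cell genes 1 rose, of 7 kept gland and conjunctiva genes 1 rose and 1 fell, of 4 kept red blood cell genes 1 fell (1 rose and 0 fell without TMM factors), and of 5 kept skeletal muscle genes none was called.

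Among genes of nerve growth and axon guidance, which bear on the dense sensory supply of the cornea, 6 of 28 rose and 1 fell (10 and 0 without TMM factors), against 19.8% and 18.8% of all kept genes, and 4 of 24 with their own sequence rose, against 11.1%. Sema3d, a secreted semaphorin, had 32.5, 25.5, 22.6 and 22.3 CPM in KO + PBS, against 2.497 and 2.42 CPM in KO, and 5.52 to 6.76 CPM in WT. Its 4 KO + PBS libraries were close together (log2 fold change 3.38 ± 0.27, edgeR adjusted p = 0.000895, and 2.21 in its own sequence class, edgeR adjusted p = 0.00344). Slit2, a repellent ligand of Robo receptors, had 104.3, 166, 40.2 and 34.6 CPM in KO + PBS, against 5.06 and 2.73 CPM in KO, and 20.1 to 22.1 CPM in WT. It rose by 4.49 ± 0.87 and Efnb2, the ligand ephrin B2, by 1.69 ± 0.33 (log2, edgeR adjusted p = 0.00877 and 0.00897), and in the own sequence class by 3.74 and 1.42 (edgeR adjusted p = 0.0271 and 0.0291), with calls over all kept genes that ended without either KO library (edgeR adjusted p up to 0.0911). Of 14 kept genes of Schwann cells and myelin, 2 fell and none rose (4 and 0 without KO + PBS replicate 2). Of 14 kept vessel genes 1 fell (7 without KO + PBS replicate 2, and 1 higher with none lower without TMM factors), Egfl7 (log2 fold change -2.499 ± 0.80, edgeR adjusted p = 0.0472, and up to 0.172 without 1 of 5 libraries).

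Ratios between genes within a library do not depend on its scaling, but they can still differ with how the libraries were counted. Gstp2 over Gstp1, also such a ratio, was 0.00902 to 0.0178 in KO + PBS, against 0.889 and 0.936 in KO. Among the genes below, Krt12 and Psmb8 share words with other genes and overlap another gene, and Col4a3 has an overlapping exon. The part of counting in these ratios was not tested. Of the 21 ratios computed, 14 did not overlap between KO + PBS and KO. By percentile, 58.1% of all single kept genes did not overlap either. For each of the 14 ratios the exact permutation test gave p = 0.133 (two-sided), the smallest that 4 against 2 libraries allow, so none can pass 0.05. Col4a3 over Col4a1 was 1.497, 1.10, 1.14 and 0.694 in KO + PBS, against 0.0139 and 0.0135 in KO, and 0.174 to 0.245 in WT. Dcn over Bgn, a pair of related proteoglycans, was 1.69, 1.90, 2.25 and 2.22 in KO + PBS, against 0.111 and 0.0805 in KO, and 0.877 to 0.947 in WT. Both ratios were above WT in each KO + PBS library and below it in KO. Kera over Lum was 0.847, 0.803, 0.774 and 0.822 in KO + PBS, against 1.13 and 1.60 in KO, and 1.92 to 2.19 in WT, which placed KO between the others.

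Among epithelial and inflammatory pairs, Krt12 over Krt5 was 0.219, 0.348, 0.233 and 0.228 in KO + PBS, against 1.18 and 1.36 in KO, and 1.38 to 1.49 in WT. Il1b over its natural antagonist Il1rn was 0.136, 0.161, 0.129 and 0.165 in KO + PBS, against 0.981 and 0.606 in KO, and 0.0885 to 0.154 in WT. Psmb8 over Psmb5, the constitutive subunit that it replaces, was 1.80, 1.45, 1.83 and 2.86 in KO + PBS, against 4.58 and 3.38 in KO, and 0.877 to 0.977 in WT. The Il1b ratio in KO + PBS thus overlapped the WT values and the Psmb8 ratio lay between WT and KO. Other immunoproteasome pairs differed from Psmb8. Psmb10 over Psmb7 was 0.448 to 0.879 in KO + PBS, against 4.45 and 7.78 in KO, and 1.30 to 1.63 in WT. That ratio differed by -3.28 on the log2 scale, more than the fall of Psmb10 given above, so a higher Psmb7 in KO + PBS also entered it. Psmb9 over Psmb6 was 0.368 to 1.61 in KO + PBS, against 1.09 and 0.605 in KO. Ratios of Psmb9 over Psmb6, Slc4a11 over Kera, Irf7 over Irf3 and Col3a1 over Col1a1 were among the 7 that overlapped.

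**Figure D5:**
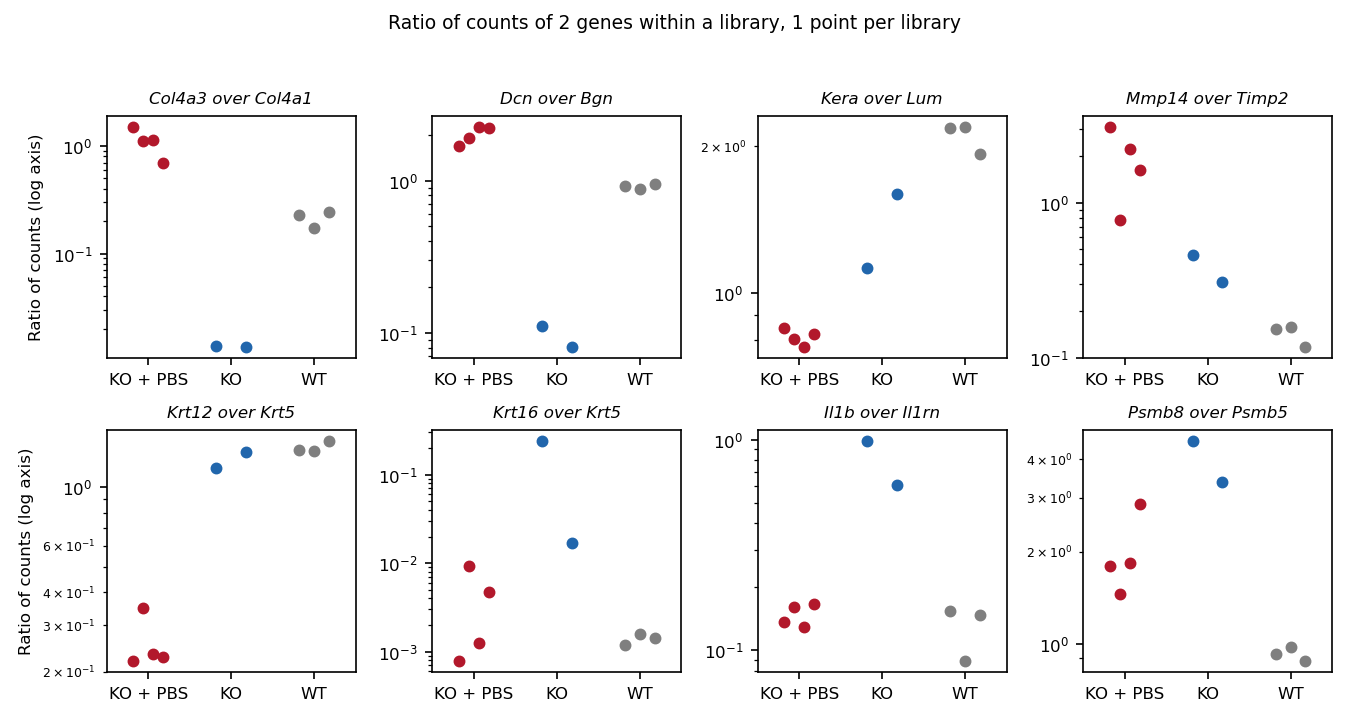
Ratio of the counts of 2 genes within each library (log axis) for 8 pairs in KO + PBS (red, n = 4), KO (blue, n = 2) and WT (grey, n = 3). KO + PBS and KO do not overlap in any of the 8, and Il1b over Il1rn in KO + PBS (0.129 to 0.165) lies with WT.

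Genes that the count minimum removed on the KO side are also without a test. Of the names not kept after the name filters, 1046 were under 10 counts in KO + PBS alone and 615 in KO alone. Dkk1, a secreted Wnt antagonist, had 164, 514, 156 and 91 counts in KO + PBS, against 3 and 9 in KO, and 177 to 433 in WT. Frem3, a basement membrane protein, had 576, 1336, 358 and 262 counts in KO + PBS, against 8 and 7 in KO, and 197 to 477 in WT. Fosl1, an AP-1 subunit, had 64, 82, 51 and 118 counts in KO + PBS and 0 in all 5 untreated libraries, KO and WT. Other names had the same zeros at higher counts. Raver1 had 1612, 1582, 1683 and 1411 counts in KO + PBS and Nupl1 1362, 605, 1370 and 1098. Both had 0 in all 5 untreated libraries, and both have an exon overlapping another gene. The part of counting in such zeros was not tested. At the edge of the rule, 132 kept genes had a lowest count of 10, with a median log2 ratio of mean CPM of 0.50, and 136 genes with a lowest count of 9, at 0.66, were not kept.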

How the data were processed

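Whole-cornea RNA was sequenced in 9 libraries, 6 of which enter the comparison. Reads were handled with fastp, STAR and featureCounts on mm10, per the submitters' processing notes. Their versions, the annotation and the strand and multiple-mapping settings were not given in the sources used here. Deposited values are raw counts per gene, not normalized, made by the authors. Names that read as calendar dates (23) were left out. No library repeated another. Of the kept genes, 12590 matched GENCODE M21 (GRCm38), 459 by an older symbol, which gave lengths, GC content, exon overlaps and shared 31-base words. The 6 libraries were fitted with edgeR 4.0.16 (R 4.3.3): TMM factors, robust quasi-likelihood dispersion, a mean per group, Benjamini-Hochberg adjustment over 12645 genes. The SE is the log2 fold change over the square root of F. Alternatives used limma 3.58.1, DESeq2 1.42.0, other scalings, filters and left-out libraries. Ratios were tested by exact permutation. The code was tested on simulated data. The SE includes the modelled spread among libraries, whereas the limit set by 3 counts covers counting error only. Named genes are, per direction, the 10 largest changes among called protein-coding genes with no exon overlap, no -ps copy, 20 CPM in the higher group and separated ranks, leaving out RIKEN, Gm and antigen receptor names, plus up to 4 called and 2 highest-level members per list, ratio genes and Aire. Cd3e, Slc4a4, Timp3, Col4a6, Gclc, Lcn2, H2-T23, Ifit1, Isg15, Clu, the copies Gstp1 and Amd1, the genes under the count minimum and the own sequence genes were named after their values were seen. A few items are not reported here. Members and lists were chosen with earlier results of these data known.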

Additional observations from a re-analysis of the deposited data

Results flagged for a closer look

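Single KO + PBS libraries stood apart from the other 3 of their group, by Dixon's test on 4 values, for 9 of 88 genes, 3 of 38 list sums and 2 of 21 ratios. Chance sets about 1 in 20 groups apart. Replicate 2, whose mt- share was the highest, was the library that stood apart most often. It was high for Atp1b1 (429.2 CPM), Timp3 (562.1 CPM) and Ogn (144.1 CPM) and low for S100a6 (1800.0 CPM), Ifit2 (29.31 CPM) and Lpar5 (20.19 CPM). It was also high for the sum of the endothelial genes (6545 CPM) and for the ratio of Krt12 over Krt5 (0.3482), and low for the ratio of Irf7 over Irf3 (4.905). Replicate 1 was high for Itgav (203.6 CPM) and replicate 3 low for Ern1 (20.74 CPM). Replicate 4 was high for Cd3e (11.3 CPM), for the sum of MHC class II genes (1745 CPM) and for the sum of T cell and cytotoxic genes (187.7 CPM).

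Counts under mitochondrial names lie outside the kept genes. Their share was 0.7955, 6.124, 0.9228 and 0.8808% in KO + PBS replicates 1 to 4, against 0% in both KO libraries, and all 3 WT libraries were at 0% too.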

How the results depend on the processing

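The main counts were 2500 genes higher and 2383 lower. They were 4043 and 1029 without TMM factors, 1417 and 1414 without genes that overlap another or have a pseudogene copy in the table, and 1511 and 1223 when tested against a fold of 1.5. Among genes with their own sequence they were 1197 and 1167, with length and GC cells 779 and 687, and with such cells but lacking KO + PBS replicate 2 there were 1325 and 1160; these 3 were chosen after seeing the data, and fewer genes entered them. RLE, upper-quartile and rank scaling, scaling in length or GC bins, other count filters, DESeq2, all 9 libraries and non-robust dispersion kept both counts within 1.5 times. Leaving out 1 library gave 813 to 3371 higher and 953 to 3451 lower, the lowest without KO replicate 2 and the highest without KO + PBS replicate 2. Apart from the fits of fewer genes or libraries, the cause was not tested.

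Replicate numbers occur in both groups but tie no samples together in the labels, and with only 2 shared numbers the deviations correlated at 0.085 and 0.228. The fit with the replicate number as a block called 1085 higher and 740 lower.

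Of 82 called genes with values in the text, 0 turned round under any setting they entered. Apart from leaving out a library, 57 kept their call in every planned setting that they entered. Of the 88 genes compared, 67 entered the fit without overlapping exons or -ps copies and 70 the one with a minimum of 50 counts. Among uncalled genes, the log2 change of Ifit1 was -0.18 with the block and -0.0045 with scaling in GC bins, that of Isg15 0.18 and that of Cd74 0.52 with scaling in length bins, and that of Cd3e -0.30 by ranks and -1.05 with the block. Leaving out a library, Cd3e ranged over -1.09 (without KO + PBS replicate 4) to 0.79. The sign of the median held in every setting for 16 of 36 lists. For the 21 ratios, leaving out 1 library cannot shift a mean of 4 or 2 values by the larger group SD. A comparison with that spread therefore says nothing about their stability. With 2 KO libraries, calls rest on a spread borrowed across genes.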
